A study of Mus musculus with 24 samples.

Results

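Cry1 and Cry2 encode the cryptochromes, the repressors of the mammalian circadian clock. They were found in the table by gene symbol, and each symbol matched a single gene, so the description covers 2 of the 53465 genes in the table. The pair was chosen with earlier results of these data known. Both passed the filter on low counts, as did 15493 genes in all. The measurements are RNA-seq read counts of brain endothelial cells, the cells that form the blood-brain barrier, sorted by fluorescence for the surface protein CD31 from dissociated mouse brain. The controls were 12 Bmal1fl/fl mice, which carry floxed Bmal1 (gene symbol Arntl) and no Cre. The mutants were 12 Bmal1fl/fl; Tie2cre mice, in which Cre recombinase is driven by the promoter of Tie2 (Tek), a gene active in endothelium and also in blood-forming cells. All mice were labelled as strain C57BL/6J, fed ad libitum and kept under alternating light and dark phases, and both sexes were used for gene expression. Their ages and the sex of each mouse were not given in the sources used here. Brains were taken at zeitgeber time (ZT, hours after lights on) 2, 6, 10, 14, 18 and 22, with 2 mice of each genotype at each time point and 1 library per mouse, so the p-values measure the spread between mice.

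The cryptochromes close the negative feedback loop of the clock. The transcription factor BMAL1, paired with CLOCK or NPAS2, binds E-box sequences and activates the Per and Cry genes, and the PER and CRY proteins then enter the nucleus and repress BMAL1 and its partner. CRY1 is known as the stronger and later repressor of the pair, and both proteins are turned over through ubiquitination. Loss of BMAL1 stops the loop, and the present comparison shows what both cryptochrome transcripts did in brain endothelium with floxed Bmal1 and an endothelial Cre.

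Cry1 (ENSMUSG00000020038) lies on the minus strand at chr10:85131700-85185064 of GRCm38, with 4 annotated transcripts and 13 exons in the principal one. Cry2 (ENSMUSG00000068742) lies on the minus strand at chr2:92403646-92434043, with 4 transcripts and 12 exons in the principal one. The antisense gene D930015M05Rik overlaps Cry2 and had 0 reads in each of the 24 libraries. The 250 bases before each start site are shown from RefSeq (GRCm38.p6), 5′ to 3′ on the gene's own strand. They lie at chr10:85185055-85185304 for Cry1 and chr2:92434070-92434319 for Cry2. Capitals mark the E-box (CACGTG) and the E-prime box (CACGTT, read here on the opposite strand as AACGTG):
Cry1: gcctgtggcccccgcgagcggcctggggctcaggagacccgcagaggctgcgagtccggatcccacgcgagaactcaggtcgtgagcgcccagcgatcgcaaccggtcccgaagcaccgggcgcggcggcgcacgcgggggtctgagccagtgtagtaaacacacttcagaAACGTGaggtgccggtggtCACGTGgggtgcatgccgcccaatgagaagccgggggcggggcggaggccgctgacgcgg
Cry2: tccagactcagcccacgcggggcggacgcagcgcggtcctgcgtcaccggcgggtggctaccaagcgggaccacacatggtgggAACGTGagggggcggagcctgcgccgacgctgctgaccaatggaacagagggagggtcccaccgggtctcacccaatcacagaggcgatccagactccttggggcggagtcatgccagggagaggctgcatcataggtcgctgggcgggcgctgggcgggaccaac

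The Cry1 window held an E-box that began 60 bases before the start site and an E-prime box that began 79 bases before it. The Cry2 window held no E-box and a single E-prime box, 166 bases before the start site. Both strands were searched, and the windows held no D-box (TTATGTAA, TTACGTAA or TTACATAA) and no ROR element core (TAGGTCA or TGGGTCA). Sequence of the 2 genes outside these windows was not searched. Among 32851 RefSeq promoters of the same length, 6.02% held an E-box, 3.85% an E-prime box, 0.931% a D-box and 5.38% a ROR element core. An E-box together with an E-prime box, as in Cry1, occurred in 0.301% of them. A match of letters is a description of the sequence and not a measured binding site.

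The libraries held between 6136404 and 6648311 normalized reads in genes. The 10 endothelial markers had reads in every library, with a summed level of 13228 to 21471 CPM (counts scaled to a common library total) in controls and 15140 to 21685 in mutants. The 8 libraries of ZT6 and ZT18 stood apart: their 7 microglial markers summed to 167 to 274 CPM, against 1437 to 3946 in the other 16 libraries, and their mitochondrial share was 2.68% to 3.90% against 5.78% to 17.4%. The cryptochrome values without those libraries, within them alone and with the other cell types' markers as covariates stand beside the level differences. Fewer cells of a type and less RNA per cell cannot be told apart in bulk samples. Arntl, the targeted gene, had 1 to 468 reads in controls (median 166.5) and 81 to 354 in mutants (median 242.5), a log2 difference of 0.96 ± 0.43 (SE, adjusted p = 0.639, edgeR). This count covers exons outside the floxed one, so it does not check the deletion.

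Cry1 transcripts were higher in mutants than in controls. Controls had 275 ± 111 Cry1 reads (SD, n = 12), with a lowest library of 116, a median of 287.5 and a highest of 501. Mutants had 485.8 ± 86.1 reads (SD, n = 12), with a lowest library of 365, a median of 480 and a highest of 633. The ranges overlapped only in part: 10 of the 12 control libraries lay below the lowest mutant, and 4 of the 12 mutant libraries lay above the highest control. With time point as a factor, the difference was 0.89 ± 0.14 on the log2 scale (SE), or 1.85-fold (95% interval 1.54 to 2.24), with an adjusted p of 0.000759 by edgeR's quasi-likelihood test. Cry1 ranked 6th by p among the genes tested. In that comparison 24 of 15493 genes were called higher in mutants (0.155%) and 18 were called lower (0.116%), so Cry1 belonged to a small set.

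**Figure D1:**
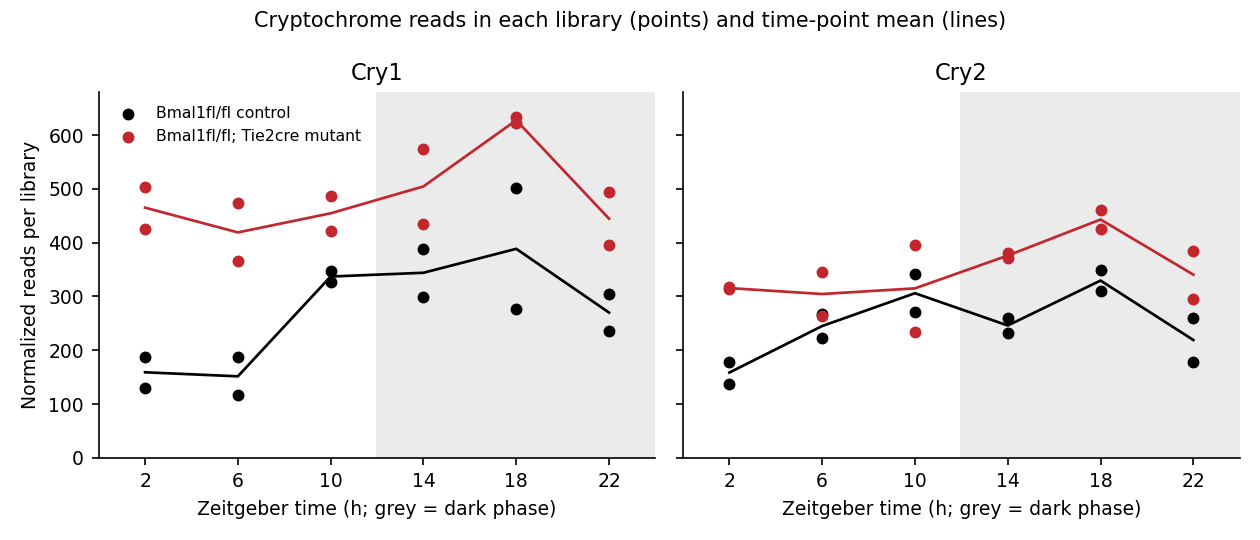
Normalized reads of Cry1 (left) and Cry2 (right) in each library against zeitgeber time in hours, with controls in black, mutants in red, lines through the mean of the 2 mice and the dark phase in grey. The mutant points lie above the control points at each of the 6 time points for Cry1, while for Cry2 the points of the genotypes overlap at ZT6 and ZT10.

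Cry2 had a smaller difference of the same sign, which was not called at the threshold of 0.05. Controls had 250.7 ± 64.9 Cry2 reads (SD, n = 12), from 138 to 349 with a median of 259.5. Mutants had 349.1 ± 66.8 reads (SD, n = 12), from 234 to 461 with a median of 358.5. Of the 12 mutant libraries 6 lay above the highest control, and 5 of the 12 control libraries lay below the lowest mutant. The difference was 0.50 ± 0.12 on the log2 scale (SE), or 1.41-fold (95% interval 1.21 to 1.66), with an unadjusted p of 0.000163, an adjusted p of 0.0551 and rank 45. DESeq2 called Cry2 higher (log2 difference 0.50, adjusted p = 0.0121), and so did edgeR without 1 of 3 libraries: control ZT10 replicate 2 (0.55, adjusted p = 0.0314), mutant ZT6 replicate 1 (0.53, 0.0340) or mutant ZT10 replicate 2 (0.57, 0.00995). The Cry2 difference was positive under each of 38 alternatives, from 0.39 to 0.59. Its adjusted p was 0.188 with a cosine and sine in place of the time-point factor and ran up to 0.866 in the settings for library groups given next.

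The Cry1 difference kept its direction under each of 38 alternatives, while the call depended on how library groups were treated. The latter of the 2 sequences in each library barcode, read here as the i5 index although the labels call the pair only a barcode, differed between genotypes at ZT2 and ZT10 and was shared by both at the other time points. With that index as a covariate the Cry1 difference was 0.84 (adjusted p = 0.0535), that of Cry2 was 0.48 (adjusted p = 0.337), and 7 genes were called in all. With the summed markers of 6 other cell types as covariates Cry1 had 0.77 (adjusted p = 0.0759) and Cry2 had 0.40 (adjusted p = 0.464), with 11 genes called. Within a single index, for Cry1, the libraries of ZT6 and ZT18 gave 1.09 (unadjusted p = 1.53e-05, adjusted p = 0.0529) and those of ZT14 and ZT22 gave 0.60 (unadjusted p = 0.00580, adjusted p = 0.470). For Cry2 they gave 0.39 (adjusted p = 0.866) and 0.59 (adjusted p = 0.517). Without ZT6 and ZT18 the adjusted p for Cry1 was 0.0390 and that for Cry2 was 0.312.

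The size of the Cry1 difference varied between time points, as a description here and with its test further on. At ZT2 and ZT10 the barcode index differed between the genotypes, so index and genotype cannot be told apart at those time points. At ZT2 the control mice had 188 and 130 Cry1 reads and the mutants 504 and 426, a log2 difference of 1.59 ± 0.29 (SE), or 3.0-fold. At ZT6 the control reads were 116 and 187 and the mutant reads 365 and 473, a log2 difference of 1.5 ± 0.29, or 2.82-fold. The mutant libraries lay far above the controls at both of these light-phase time points. At ZT10 the controls had 326 and 348 reads and the mutants had 487 and 422, a difference of 0.44 ± 0.28. At ZT14 the controls had 389 and 299 reads and the mutants 435 and 574, a difference of 0.45 ± 0.28. Late in the light phase and early in the dark phase both mutants still exceeded both controls, by 1.36-fold in each case. At ZT18 the controls had 276 and 501 reads and the mutants 622 and 633, a difference of 0.72 ± 0.28. At ZT22 the controls had 236 and 304 reads and the mutants 494 and 395, a difference of 0.71 ± 0.28.

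Both mutants exceeded both controls in Cry1 at 6 of 6 time points. Over all genes tested, 3 of 15493 (0.0194%) showed this: Cry1, Plat and Ret, of which the latter pair are named after their values were seen. The separation was counted on the deposited reads. With the TMM scaling that edgeR used, Cry1 at ZT14 was 68.0 CPM in the lower mutant and 67.0 CPM in the higher control, a narrow margin. The unadjusted edgeR p for Cry1 was 1.16e-05 at ZT2, 2.56e-05 at ZT6, 0.0163 at ZT18 and 0.0196 at ZT22. At ZT10 it was 0.129 and at ZT14 it was 0.125. No time point passed the threshold after adjustment over all genes, with adjusted p = 0.180 at ZT2, 0.0662 at ZT6 and 0.687 or more at the others. The share of all genes higher in mutants at an unadjusted p under 0.05 was 3.81% at ZT2, 2.19% at ZT6, 2.89% at ZT10, 4.67% at ZT14, 2.70% at ZT18 and 1.56% at ZT22.

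**Figure D2:**
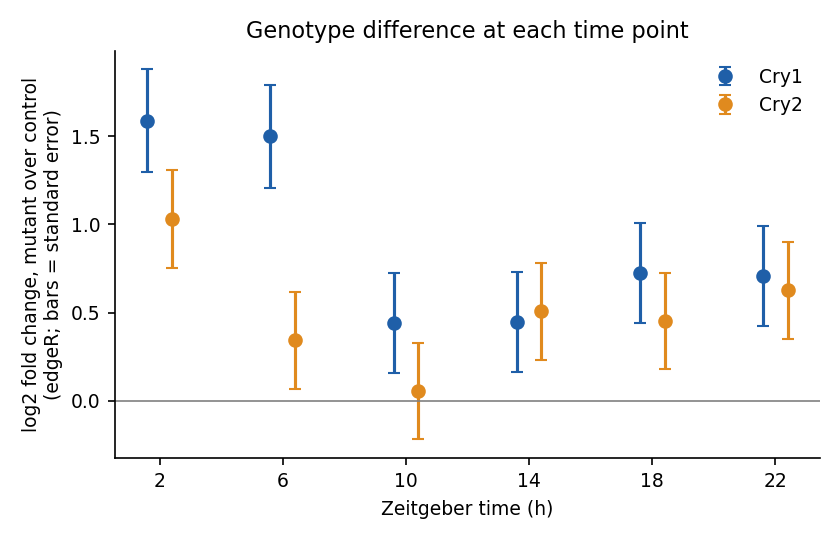
Log2 fold change of mutant over control at each zeitgeber time from edgeR, with Cry1 in blue, Cry2 in orange and bars for the standard error. Cry1 is highest at ZT2 (1.59) and ZT6 (1.5), and Cry2 is highest at ZT2 (1.03) and close to 0 at ZT10 (0.05). At ZT2 and ZT10 genotype cannot be told apart from the barcode index.

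Cry2 showed its widest separation at ZT2 as well. There the controls had 179 and 138 Cry2 reads and the mutants 314 and 317, a log2 difference of 1.03 ± 0.28 (SE), or 2.04-fold, with an unadjusted p of 0.00105 and an adjusted p of 0.462. The barcode index also separated the genotypes at ZT2, as at ZT10, so index and genotype cannot be told apart there. At ZT6 the controls had 267 and 223 reads and the mutants 263 and 346, and the groups overlapped, with a difference of 0.34 ± 0.27. At ZT10 they overlapped again, with 271 and 341 reads in controls and 396 and 234 in mutants, a difference of 0.05 ± 0.27. The libraries of the genotypes thus overlapped at ZT6 and ZT10, which does not show that their levels were the same. At ZT14 the controls had 232 and 260 reads and the mutants 381 and 371, a difference of 0.51 ± 0.27. At ZT18 the controls had 310 and 349 reads and the mutants 425 and 461, a difference of 0.45 ± 0.27. At ZT22 the controls had 179 and 259 reads and the mutants 385 and 296, a difference of 0.63 ± 0.27 with an unadjusted p of 0.0314. Both mutants exceeded both controls at ZT14, ZT18 and ZT22, which is a description only. The share of all genes with such a separation was counted for all 6 time points together and not for these. The unadjusted edgeR p at ZT14 and ZT18 was 0.0755 and 0.106.

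In control mice Cry1 was low at ZT2 and ZT6 and high from ZT10 to ZT18. The order of the time-point means was ZT6 (151.5 reads), ZT2 (159), ZT22 (270), ZT10 (337), ZT14 (344) and ZT18 (388.5). The lowest and highest means, at ZT6 and ZT18, came from the libraries that stood apart in microglial markers and mitochondrial share. Without those libraries an edgeR cosine model of the controls gave an unadjusted p of 0.00719. The libraries of ZT2 and ZT6 overlapped each other, as did those of ZT10 with ZT14 and ZT14 with ZT18, while the ZT2 libraries lay wholly below those of ZT22, and those of ZT22 below those of ZT10. The ZT22 libraries (236 and 304) overlapped those of ZT14 (299 and 389) and ZT18 (276 and 501). Cry1 differed among the 6 time points in controls (adjusted p = 0.00255, edgeR), as did 1076 of 15493 genes (6.95%). A cosine of 24 h fitted to the control libraries had a log2 amplitude of 0.71 ± 0.16 (SE) and a peak at ZT15.6 ± 0.85 h, a 2.68-fold span from trough to peak.

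The rhythm test of the study's methods, as rewritten here, did not call Cry1 in controls. That test, meta2d, combines the rank-based JTK_CYCLE with a Lomb-Scargle periodogram, and over the control libraries (n = 12) it gave p = 0.0503 with a q of 1.00 over all genes. Of the genes tested, 2.43% had p under 0.05 and 0.310% had q under 0.6 in controls. The value sat at the threshold, and with 1 library omitted (n = 11) it was below it without control ZT14 replicate 2 (p = 0.0238) or control ZT18 replicate 1 (p = 0.0370). Omitting any other control library gave a meta2d p of 0.0725 to 0.172. Keeping tied time points tied in the test gave 0.0742. With TMM scaling of the libraries the meta2d p was 0.0158, and an edgeR cosine model gave an unadjusted p of 0.000520 (adjusted p = 0.173). The paper reports cycling of core clock genes in controls, and its own meta2d value for Cry1 was not compared here.

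Cry2 in control mice had a fitted amplitude below that of Cry1, a difference that was not tested. Its means ran from ZT2 (158.5 reads) through ZT22 (219), ZT6 (245), ZT14 (246) and ZT10 (306) to ZT18 (329.5). The libraries of neighbours in this order overlapped or met, except that ZT14 lay below ZT10. The fitted cosine had a log2 amplitude of 0.37 ± 0.13 (SE) and a peak at ZT13.8 ± 1.37 h, a 1.67-fold span. The meta2d p was 0.458 (q = 1.00), and the test among time points gave an unadjusted p of 0.00941 and an adjusted p of 0.0977, so Cry2 was called by neither.

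In mutant mice neither cryptochrome was called as varying with time. The Cry1 means ran from ZT6 (419 reads) through ZT22 (444.5), ZT10 (454.5), ZT2 (465) and ZT14 (504.5) to ZT18 (627.5), and only the ZT18 libraries, at 622 and 633, stood clear of their neighbour in the order. The Cry2 means ran from ZT6 (304.5) through ZT10 (315), ZT2 (315.5), ZT22 (340.5) and ZT14 (376) to ZT18 (443), and again only the ZT18 libraries stood clear. ZT18 had the highest mean for both genes in both genotypes, and the ZT18 and ZT6 libraries are those that stood apart in microglial markers and mitochondrial share. The fitted log2 amplitude was 0.21 ± 0.088 (SE) for Cry1, with a peak at ZT17.2 ± 1.57 h, and 0.25 ± 0.098 for Cry2, with a peak at ZT17.5 ± 1.49 h. The edgeR cosine model over the mutants (n = 12) gave an unadjusted p of 0.0964 for Cry1 and 0.0876 for Cry2, and without ZT6 and ZT18 these were 0.817 and 0.560. The meta2d p was 0.415 for Cry1 and 0.375 for Cry2, where 2.27% of genes had p under 0.05 and 0.0387% had q under 0.6. The test among time points gave adjusted p = 0.747 and 0.730, where 5.47% of genes were called.

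The difference in rhythm between genotypes was tested directly, as an interaction of genotype with the 24 h cosine and sine. For Cry1 the unadjusted p was 0.0116 and the adjusted p 1.00. For Cry2 the unadjusted p was 0.180. An unadjusted p under 0.05 was reached by 660 of 15493 genes (4.26%), and 0 passed after adjustment, and Cry1 was one of the former. The Cry2 p does not show that its daily course was the same in both genotypes.

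Within a library, the ratio of Cry1 to Cry2 reads does not depend on the scaling between libraries. The mean log2 ratio was 0.06 ± 0.49 (SD, n = 12) in controls and 0.48 ± 0.18 in mutants. Cry1 therefore gained on Cry2 by 0.42 on the log2 scale, or 1.34-fold (exact 2-sided permutation test within time points, 46656 arrangements, p = 0.00742). Without the ZT6 and ZT18 libraries the gain was 0.25 and was not past the threshold (exact permutation p = 0.0818). Cry1 reads exceeded Cry2 reads in 12 of 12 mutant libraries and in 8 of 12 control libraries.

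The ratio is given by time point as a description. In controls its time-point mean was lowest at ZT6, at 0.604 (0.434 and 0.839 in the 2 libraries), and highest at ZT14, at 1.39 (1.15 and 1.68). The ratio was 0.995 at ZT2, 1.11 at ZT10, 1.13 at ZT18 and 1.24 at ZT22 in controls. In mutants it stayed between 1.31 at ZT22 and 1.49 at ZT10. The genotypes thus differed most in their ratio at ZT6 and least at ZT14 and ZT22, and their libraries overlapped at ZT14, ZT18 and ZT22. At ZT14 the mutant ratio of 1.33 lay below the control ratio of 1.39, opposite in sign to the gain.

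**Figure D3:**
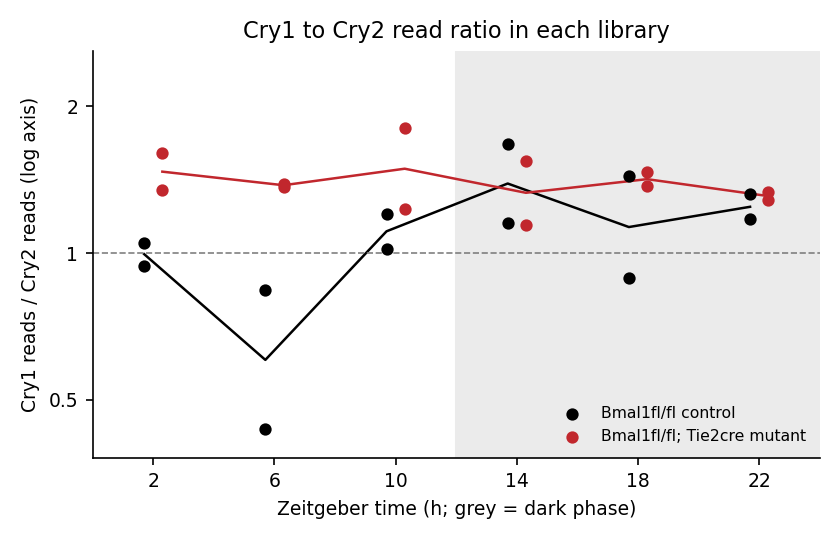
Ratio of Cry1 to Cry2 reads in each library on a log axis against zeitgeber time, with controls in black, mutants in red, lines through the geometric mean of the 2 mice and a dashed line at equal reads. Control libraries run from 0.434 at ZT6 to 1.68 at ZT14, and the 12 mutant libraries all lie above 1.

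Per length of exon, Cry1 was the more abundant transcript. Cry1 had 82.3 ± 33.4 reads per kb of exon (SD, n = 12) in controls and 145 ± 25.8 in mutants, over 3340 bases of merged exons. Cry2 had 39.7 ± 10.3 reads per kb in controls and 55.2 ± 10.6 in mutants, over 6320 bases. The Cry1 level per kb exceeded that of Cry2 in 23 of 24 libraries, the exception being control ZT6 replicate 1, and also in 23 with the principal transcripts of 3026 and 3976 bases as lengths.

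Both cryptochromes followed each other across libraries. Pearson's r of their log2 levels was 0.80 over the 24 libraries, 0.67 over the 12 controls and 0.80 over the 12 mutants, as a description, since the values share libraries, genotype and time of day. Of all genes tested, Cry2 was the one most like Cry1, and Cry1 the one most like Cry2. The next most like Cry1 were Rab11fip1 (r = 0.72), Aldh1a3 (0.68), Rftn2 (0.67) and Marf1 (0.66). The next most like Cry2 were Lpl (r = 0.78), Rab11fip1 (0.77), Hgs (0.72) and Aldh1a3 (0.71). Of these genes Rftn2 was itself called higher in mutants, with a log2 difference of 1.07 (adjusted p = 0.000759).

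Cry1 was called in the opposite direction to each of the 6 listed clock genes that were called. Of 38 listed genes 37 passed the filter, and 0 were called higher and 6 lower in mutants by edgeR, with a median log2 difference of 0.01 beside 0.003 over all genes. Over all genes tested, 0.155% were called higher and 0.116% lower. Among the 6 partners in the negative limb, only the period gene Per3 was called, with a log2 difference of -1.89 ± 0.24 (adjusted p = 4.18e-05). The other period genes, which encode the binding partners of the cryptochromes, had differences of 0.09 ± 0.12 (Per1) and -0.24 ± 0.29 (Per2). The time course of Per2 did differ between genotypes, with an adjusted p of 0.0112 for the interaction with time point as a factor (edgeR). In the positive limb 0 of 3 genes were called: Clock, the partner of BMAL1, had 0.25 ± 0.07 (adjusted p = 0.220). Npas2, which can take the place of CLOCK, had 2.27 ± 0.53 with an adjusted p of 0.0572, was called by DESeq2 (adjusted p = 0.0305) and was called by edgeR without ZT6 and ZT18 (adjusted p = 0.00413). With the markers of 6 other cell types as covariates it had 1.57 (adjusted p = 0.507).

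Of the 5 nuclear receptors that act at ROR elements, the repressors Nr1d1 and Nr1d2 (REV-ERB alpha and beta) were called lower, with log2 differences of -2.26 ± 0.34 and -1.90 ± 0.21. The activator Rora had -0.16 ± 0.09 and was not called. Of the 4 factors that act at D-boxes, the activators Dbp, Tef and Hlf fell by 1.26, 0.87 and 0.76, and the repressor Nfil3 had 0.78 ± 0.32 and was not called. With the markers of 6 other cell types as covariates, Tef (-0.82, adjusted p = 0.0531) and Hlf (-0.66, adjusted p = 0.137) were not called. Without ZT6 and ZT18, Dbp (-0.88, adjusted p = 0.326) and Tef (-0.81, adjusted p = 0.114) were not called, so 4 of the 37 listed genes tested were called lower in either setting. Of 15493 genes, 6 were called lower with the marker covariates and 11 without ZT6 and ZT18.

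Of 20 genes whose products modify, degrade or work with the cryptochrome proteins, 19 passed the filter and 0 were called in either direction, with a median log2 difference of 0.04. At the shares called over all genes (0.155% higher and 0.116% lower), this count is not particular to the list. Usp7, a deubiquitinase that stabilises the cryptochromes, had -0.03 ± 0.07. The kinase genes Csnk1d and Csnk1e had -0.01 ± 0.07 and 0.07 ± 0.07. The highest of the list was Dyrk1a, a kinase of CRY2, at 0.25 ± 0.09 (adjusted p = 0.520). The remaining gene of the list had too few reads to be tested.

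**Figure D4:**
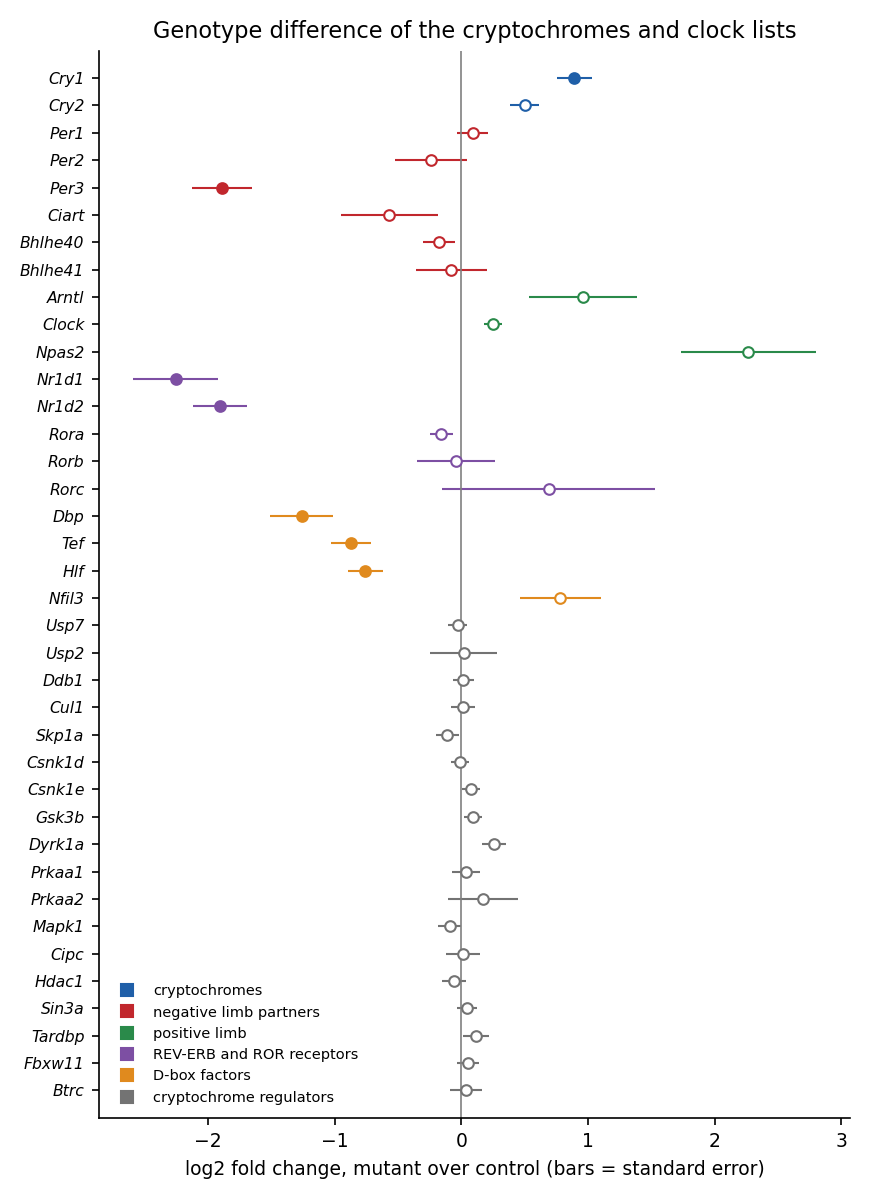
Log2 fold change of mutant over control for the cryptochromes and 36 of the 37 listed clock genes that passed the filter, coloured by list, with bars for the standard error and filled points for an adjusted p under 0.05. Cry1 is the one filled point to the right of 0, opposite Per3, Nr1d1, Nr1d2, Dbp, Tef and Hlf.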

How the data were processed

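Per the study's methods and the labels, the authors aligned stranded paired-end total RNA reads to GRCm38 with STAR 2.5.3a, merged lanes with SAMtools 1.3.1 and used PORT to bring libraries to similar totals at the read level before counting. The deposited values are whole-number read counts per gene, not divided by gene length, and the depth before that step cannot be read from them. Genes with at least 5 reads in at least 6 control or 6 mutant libraries were kept. Levels were compared with edgeR 4.0.16 (quasi-likelihood F-test, TMM scaling, time point as a factor, Benjamini-Hochberg adjustment over all genes kept) in R 4.3.3, and single time points from a model with 1 mean per genotype and time point, which pools the spread over groups of 2 mice. The rhythm test of the study's methods was rewritten in Python 3.11.15 at a period of 24 h. Alternatives used DESeq2 1.42.0, limma 3.58.1, other scalings, filters and covariates, and omitted libraries; those for the test among time points were added after seeing the data. Cosines were fitted to log2(reads + 1). The permuted cosinor drew 100000 permutations. Scripts were tested on simulated data. Named genes are the members, the lists and the 5 genes most correlated with each member by log2(TMM-scaled CPM + 1). Plat and Ret fall outside this rule and were named after their values were seen. The members and lists were chosen with earlier results of these data known. Intervals of fold changes are 1.96 standard errors wide on each side. Of the listed genes, 1 that was tested and 1 with too few reads are not reported here by name or value.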

Additional observations from a re-analysis of the deposited data

Results flagged for a closer look

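The interaction of genotype with a 24 h cosine and sine gave an unadjusted p of 0.0116 for Cry1 (n = 12 per genotype, adjusted p = 1.00, edgeR), and no gene passed adjustment in that test. The log2 amplitude was 0.71 ± 0.16 (SE) in the 12 controls and 0.21 ± 0.088 in the 12 mutants. With time point as a factor in place of the cosine, the interaction of Cry1 gave p = 0.0222 (n = 12 per genotype, adjusted p = 0.933). The share of genes with a p under 0.05 in the cosine test was 4.26%, and in the factor test 809 of 15493 genes had one and 2 passed adjustment. Those that passed were the listed clock genes Arntl (adjusted p = 0.00813) and Per2 (adjusted p = 0.0112). Cry1 did not pass the adjustment in either test.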

How the results depend on the processing

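Of 301 alternative values over 27 results, 276 kept their direction and side of the threshold or, for counts of genes, stayed within 1.5 times the reported count; list genes called lower went from 6 to 4 with the marker lists and without ZT6 and ZT18. The Cry1 level difference ran from 0.60 to 1.09 and lost its call with the i5 index (0.84) or 6 marker lists (0.77) as covariates, within ZT6 and ZT18 (1.09) and within ZT14 and ZT22 (0.60), where fewer libraries entered; omitting 1 library gave 0.82 to 0.96. The Cry2 difference passed the threshold with DESeq2 (0.50) and without a filter (0.50, adjusted p = 0.0251), and ran from 0.45 to 0.57 with 1 library omitted. In controls the rhythm p of Cry1 was 0.000520 with an edgeR cosine, 0.00719 with that model without ZT6 and ZT18, 6.55e-05 among time points, 0.0158 with TMM and 0.00547 with permuted time points, and 0.0238 to 0.172 with 1 library omitted. That of Cry2 was 0.0262 with the edgeR cosine and 0.00941 among time points. The unadjusted rhythm difference of Cry1 was under 0.05 in 36 of 36 alternatives. List genes called higher numbered 1 (Npas2) with DESeq2 and without ZT6 and ZT18. Genes called over the whole table numbered 56 higher and 43 lower with DESeq2, 89 and 52 without a filter, 5 and 6 with the marker lists, 3 and 4 with the i5 index. The Cry1 to Cry2 gain fell to 0.25 without ZT6 and ZT18. Without TMM the ZT14 difference was 0.62 for Cry1 (unadjusted p = 0.0388) and 0.68 for Cry2 (0.0211). The causes of these changes were not tested.

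Replicate numbers name different mice: deviations of same-numbered mice correlated between -0.0052 and 0.034 over the 6 time points, positive at 4. With the replicate block the Cry1 difference was 0.89 (adjusted p = 0.000879), that of Cry2 0.50 (0.0618), the cosine p in controls 0.000750 for Cry1 and 0.0341 for Cry2, and the ratio gain 0.42 (exact permutation p = 0.0220), with 26 genes called higher and 19 lower.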

Other observations

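Over the 24 libraries, the listed clock genes whose log2 level ran most against that of Cry1 were Nr1d1 (Pearson's r = -0.59), Per3 (-0.57) and Nr1d2 (-0.55), and the one that ran most with it was Npas2 (0.56). These are descriptions, since the values share libraries, genotype and time of day. In control mice 12 of the 37 listed genes had a meta2d p under 0.05, beside 2.43% of all genes tested. In mutants 2 did, Dbp and Tef, beside 2.27% of all genes. The Cry1 p in controls, 0.0503 (n = 12), placed it 379th of all genes.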
